A study of Mus musculus with 18 samples.

Results

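Glucocorticoid response genes other than the metallothioneins were examined in the brain of mouse pups given lead. The set holds 8 genes, Fkbp5, Sgk1, Tsc22d3, Per1, Zbtb16, Pdk4, Plin4 and the receptor gene Nr3c1. Members were found by gene symbol: a probe set (a group of short probes for 1 transcript) counted when its annotation gave exactly 1 symbol and that symbol was a member. This gave 20 of the 34958 probe sets with 1 symbol and 8 of the 18194 genes measured. The brightest probe set stood for each gene, and its other probe sets served as a check. Of the 8 members, 6 were bright enough to be tested among 10916 genes, and Pdk4 and Plin4 were not.

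The pups were Mt-KO (-/-, a metallothionein knockout), heterozygous (+/-) or wild-type (+/+), and came from a final cross of brothers and sisters after at least 7 backcross generations to C57BL/6J. In each genotype, pups received lead acetate at 50 mg/kg, or saline as weight-matched controls, as 2 daily injections with 4 h between them on postnatal days 7 and 8. The whole brain was collected on day 8, 6 h after the final dose. RNA of 5 pups, male and female, was pooled per genotype and treatment and hybridised to 1 array, which gave 6 arrays and 1 pool in each combination. All 6 pools came from injected pups, so a response to handling and injection that lead and saline pups share cannot be measured here. The comparisons below give only how lead differed from saline, and how genotypes differed, after the same number of injections. Nothing in the labels says that the 3 genotypes are biological repeats of the lead treatment, but the p-values of the lead comparison use them in that place. They set a gene's mean difference against the typical departure of 3 genotypes from a common difference among genes of like brightness. A gene's own departure carried no weight in the main fit.

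Glucocorticoids, corticosterone in the mouse, are released by the adrenal gland under the control of the hypothalamus and pituitary. They bind the glucocorticoid receptor, a ligand-activated transcription factor encoded by Nr3c1, which moves to the nucleus and binds palindromic DNA sites near its target genes. In the neonatal rodent the adrenal response to mild stressors is damped for a part of early postnatal life. Fkbp5, Sgk1, Tsc22d3, Per1 and Zbtb16 are widely used target genes in brain, and Pdk4 and Plin4 are targets linked to fuel use and lipid storage. Metallothionein genes are also induced by glucocorticoids, but they are the genes altered in these mice and were kept out of the set.

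The Sgk1 gene lies on chromosome 10 (GRCm38.p6, 21882184 to 21999903), Tsc22d3 on chromosome X (140539528 to 140600522) and Fkbp5 on chromosome 17 (28398753 to 28486149). The start windows of these 3 members are shown because they had the largest lead differences in the fit described below and because the receptor's palindrome was found in 1 of them. The table holds 6 windows for Sgk1, 3 for Tsc22d3 and 1 for Fkbp5, and 1 was chosen for each after the search: the only Sgk1 window with the palindrome and the only Tsc22d3 window with an arm of it. Each runs 5′ to 3′ from 250 bases before to 50 bases after an annotated start, as listed by RefSeq on GRCm38.p6. Capitals mark exact matches, on either strand, to the receptor palindrome (AGAACA and, 3 bases on, TGTTC), to AGAACA (1 arm of it), to CACGTG (the E-box bound by clock proteins) or to TGACGTCA (the cAMP response element).
Sgk1, chr10:21993640-21993939, plus strand: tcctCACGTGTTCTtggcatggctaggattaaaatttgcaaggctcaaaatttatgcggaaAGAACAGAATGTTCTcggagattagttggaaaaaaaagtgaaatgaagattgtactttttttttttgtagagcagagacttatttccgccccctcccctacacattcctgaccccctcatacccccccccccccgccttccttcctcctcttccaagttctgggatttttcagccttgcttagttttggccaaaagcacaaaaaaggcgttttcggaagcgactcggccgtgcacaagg
Tsc22d3, chrX:140600473-140600772, minus strand: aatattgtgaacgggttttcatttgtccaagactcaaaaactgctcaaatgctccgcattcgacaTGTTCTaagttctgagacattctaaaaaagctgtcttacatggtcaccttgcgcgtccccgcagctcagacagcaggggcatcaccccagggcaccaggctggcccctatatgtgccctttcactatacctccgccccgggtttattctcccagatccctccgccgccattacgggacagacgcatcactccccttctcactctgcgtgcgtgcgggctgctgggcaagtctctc
Fkbp5, chr17:28486100-28486399, minus strand: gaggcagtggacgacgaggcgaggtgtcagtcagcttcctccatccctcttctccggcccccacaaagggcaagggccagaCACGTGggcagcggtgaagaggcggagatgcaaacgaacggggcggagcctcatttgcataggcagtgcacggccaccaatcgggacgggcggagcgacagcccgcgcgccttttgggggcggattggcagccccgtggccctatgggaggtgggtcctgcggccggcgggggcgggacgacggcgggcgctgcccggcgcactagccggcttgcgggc

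In the Sgk1 window the whole 15-letter site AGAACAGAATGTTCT lay at 21993701 to 21993715 of chromosome 10, 189 bases before that start and 965 bases before the last annotated Sgk1 start. The palindrome was present in 16 of 32851 start windows of the table (0.0487%), which belonged to 14 of 27025 genes. It was found in 1 of the 14 windows that the table holds for 6 members searched. The members searched were Fkbp5, Pdk4, Per1, Plin4, Sgk1 and Tsc22d3. Zbtb16 had no listed window, and Nr3c1 was left out of the search. The 6-letter arm AGAACA was in 4 of those 14 windows, against 19.0% of all windows. These were 3 of the 6 Sgk1 windows, that with the palindrome included, and 1 of the 3 Tsc22d3 windows. CACGTG was in 3 of 14, against 7.15% of all windows. TGACGTCA was in 0 of 14 member windows and in 1.79% of all windows. In the Sgk1 window CACGTG shares bases with 1 arm, since TGTTCT (the arm on the other strand) begins inside it. In the Tsc22d3 window 1 arm was found and in the Fkbp5 window only CACGTG. A match is a description of letters and does not show that the receptor binds there.

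The 6 arrays differed in ways that touch every value below. The median RMA value of all probe sets was 9.10 to 9.15, but the spread of values differed. For the median gene tested, lead minus saline was 0.09 in Mt-KO, 0.15 in heterozygous and -0.18 in wild-type pairs (log2). These shifts grew with brightness. In the dimmest 10% of probe sets they were -0.03 in Mt-KO, -0.00 in heterozygous and 0.02 in wild-type pairs, and in the brightest 10% they were 0.16, 0.26 and -0.26. In the 10% just below, which holds the brightest probe sets of the 6 members tested, they were 0.11, 0.16 and -0.18. Pair differences are therefore given relative to the median gene tested, and for dim members also after quantile normalization. The targeted genes followed the labels: Mt1 measured 11.71 and 11.68 in Mt-KO pools, 12.87 and 12.45 in heterozygous pools and 13.30 and 13.17 in wild-type pools (lead, then saline). The pools also differed in sex makeup, with Xist, the female-specific RNA, at 10.23 in Mt-KO lead against 12.75 in Mt-KO saline, and at 11.91 to 12.20 in the other 4 pools. Eif2s3y, a Y-linked gene, measured 11.16 in Mt-KO lead against 6.50 in Mt-KO saline. Both passed for lead (Xist -0.79, limma adjusted p = 0.000706, and Eif2s3y 1.29, limma adjusted p = 1.4e-26). They also passed for the interaction of lead with intact alleles (Xist 1.41, limma adjusted p = 4.0e-22, and Eif2s3y -2.83, limma adjusted p = 3.5e-153), and Eif2s3y for Mt-KO (-1.12, limma adjusted p = 1.0e-12). Relative to the median gene, lead minus saline in Mt-KO, heterozygous and wild-type pairs was -2.62, -0.30 and 0.48 for Xist. For Eif2s3y it was 4.57, 0.07 and -0.82. The lead and Mt-KO calls were lost with GC-RMA, quantile normalization and centred arrays, and kept with PLIER. The interaction calls were lost with GC-RMA and quantile normalization, and kept with PLIER and centred arrays. The Gapdh 3′ control probe set exceeded its 5′ probe set by 1.19 (log2) in wild-type saline and by 0.54 to 0.82 in the other 5 pools. The part of these differences in any member's values was not tested.

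**Figure D1:**
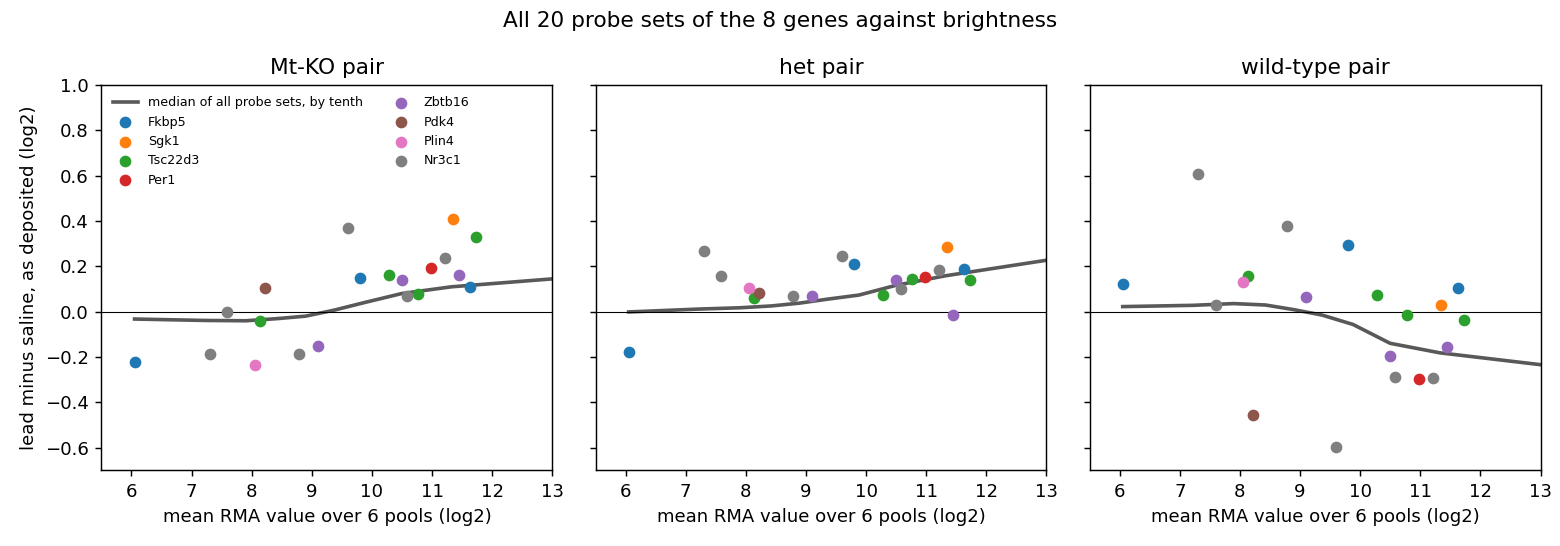
Lead minus saline difference of each member probe set (log2, y axis) against its mean RMA value (x axis), 1 panel per genotype, with the median of all probe sets in 10 steps of brightness as a line. The line rises to 0.16 in Mt-KO and 0.26 in heterozygous pairs and falls to -0.26 in the wild-type pair in the brightest step, and is at 0.11, 0.16 and -0.18 in the step below it, which holds the brightest probe sets of the 6 members tested.

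Sgk1 had the largest lead difference of the 6 members tested. It encodes a serine/threonine kinase that is induced by glucocorticoids and regulates ion channels and transporters. Its 1 probe set measured 11.46 in Mt-KO lead against 11.05 in Mt-KO saline, 11.54 in heterozygous lead against 11.25 in heterozygous saline, and 11.39 in wild-type lead against 11.36 in wild-type saline (RMA, log2). All 3 lead pools thus lay above all 3 saline pools, although the wild-type lead and saline values were nearly equal and 11.36 is close to the lowest lead value. Relative to the median gene the differences were 0.32, 0.13 and 0.21 in Mt-KO, heterozygous and wild-type pairs, and with GC-RMA, another summary of the same arrays, they were 0.23, 0.21 and 0.35. In the linear PLIER intensities the wild-type pair ran the other way as deposited, with 2599.6 in lead against 2715.8 in saline, while the other pairs had 2894.0 against 2081.2 (Mt-KO) and 3031.5 against 2382.1 (heterozygous). Over genotypes Sgk1 averaged 11.46 ± 0.07 in lead pools and 11.22 ± 0.16 in saline pools (SD, n = 3 each), a lead coefficient of 0.24 (SE 0.14, 95% interval -0.04 to 0.52), or 1.18-fold with an interval of 0.975 to 1.43. The coefficient did not pass (limma adjusted p = 1, and 0.0892 before adjustment).

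Fkbp5 was the other member whose lead pools all lay above its saline pools in RMA values. It encodes a co-chaperone of the receptor complex that lowers the receptor's affinity for hormone, so that it closes a short feedback loop. The brightest of 3 probe sets measured 11.67 against 11.56 in the Mt-KO pair, 11.72 against 11.54 in the heterozygous pair and 11.70 against 11.60 in the wild-type pair, lead against saline. The lead pools averaged 11.70 ± 0.03 and the saline pools 11.57 ± 0.03 (SD, n = 3 each). Against the median gene, however, nearly all of the difference lay in 1 pair, with 0.01 in Mt-KO, 0.04 in heterozygous and 0.29 in wild-type. After quantile normalization, which also makes the arrays' spread alike, the 3 values were -0.01, 0.02 and 0.28, and the lead and saline pools overlapped. They overlapped in PLIER intensities as well, where the wild-type pair had 1465.9 in lead against 1516.2 in saline. The other pairs had 1599.4 against 1387.9 (Mt-KO) and 1667.4 against 1300.0 (heterozygous). Relative to the median gene PLIER gave 0.03, 0.14 and 0.24. The lead coefficient was 0.13 (SE 0.15, 95% interval -0.16 to 0.42, limma adjusted p = 1). The probe set 1448231_at had a coefficient of 0.22 and the dim probe set 1447736_at one of -0.09 (limma adjusted p = 1 for both), and GC-RMA placed 1448231_at at 1.09 to 1.32, below the array medians of 3.33 to 3.60.

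Among the 10916 genes tested, 3.86% had all 3 lead pools above all 3 saline pools as deposited, and 4.79% did so relative to the median gene. Sgk1 and Fkbp5 were 2 of 6 members on both scales. Both also lay above the median gene in all 3 pairs, which 11.5% of genes tested did. With 1 gene set chosen with earlier results in view, these counts are a description.

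**Figure D2:**
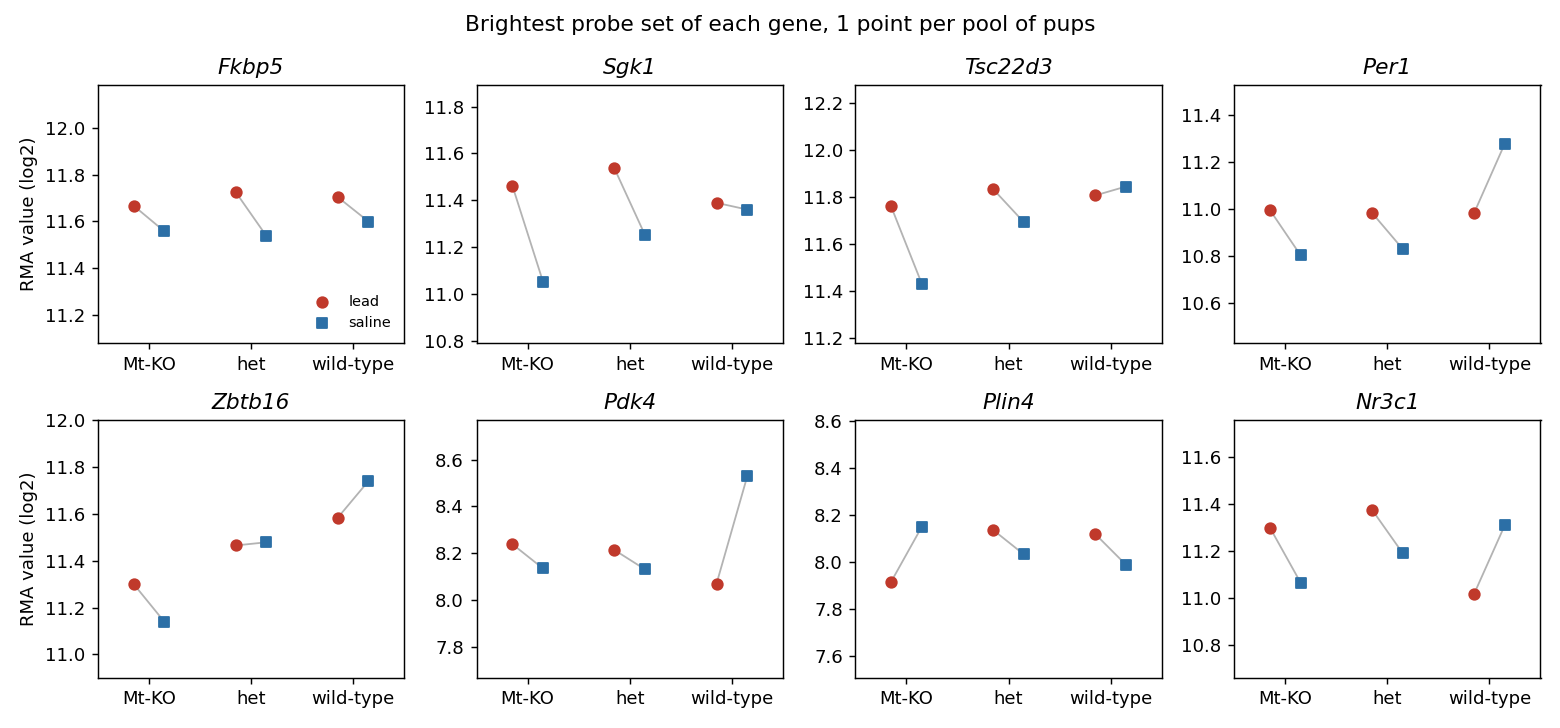
RMA value (log2) of the brightest probe set of each of the 8 members in the 6 pools, with genotypes from Mt-KO to wild-type and lead left of saline in each. Sgk1 and Fkbp5 have all 3 lead pools above all 3 saline pools, and Zbtb16 is lowest in the Mt-KO pools (11.30 and 11.14) and highest in the wild-type pools (11.58 and 11.74).

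Tsc22d3 encodes GILZ, a leucine zipper protein that mediates anti-inflammatory effects of glucocorticoids. Its brightest probe set measured 11.76 in Mt-KO lead against 11.43 in Mt-KO saline, 11.83 against 11.69 in the heterozygous pair and 11.81 against 11.84 in the wild-type pair. The Mt-KO saline pool was the lowest, and lead and saline pools overlapped. The lead coefficient was 0.14 (SE 0.15, 95% interval -0.15 to 0.44, limma adjusted p = 1). With the median gene as zero the differences were 0.23 in Mt-KO, -0.01 in heterozygous and 0.15 in wild-type pairs. The other 3 Tsc22d3 probe sets had lead coefficients of 0.06 to 0.10.

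Per1 is a clock gene whose transcription glucocorticoids raise within hours, and its protein represses the core clock activators. Its 1 probe set measured 11.00 against 10.80 in the Mt-KO pair, 10.98 against 10.83 in the heterozygous pair and 10.98 against 11.28 in the wild-type pair, lead against saline. The 3 lead pools were nearly equal (10.99 ± 0.01), whereas the saline pools spread from 10.80 to 11.28 (10.97 ± 0.27, SD, n = 3 each). The wild-type saline pool was the highest of the 6, as it was for 41.6% of genes tested. The lead coefficient was 0.02 (SE 0.13, 95% interval -0.25 to 0.28, limma adjusted p = 1), and its sign turned with GC-RMA (-0.10), PLIER (-0.05) and quantile normalization (-0.01).

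Nr3c1, the receptor gene, lies on chromosome 18 (39410545 to 39519421). Its brightest of 6 probe sets measured 11.30 against 11.07 in the Mt-KO pair, 11.38 against 11.19 in the heterozygous pair and 11.02 against 11.31 in the wild-type pair, lead against saline. The pairs did not run the same way, since the lead pool was the higher in Mt-KO and heterozygous brain and the lower in wild-type brain. Set against the median gene they were 0.14, 0.03 and -0.11, but GC-RMA gave 0.11 in the wild-type pair, and PLIER 0.28 in the Mt-KO and -0.03 in the heterozygous pair. The lead coefficient was 0.04 (SE 0.14, 95% interval -0.23 to 0.32, limma adjusted p = 1). The probe sets of Nr3c1 disagreed most in the wild-type pair, where the lead minus saline difference as deposited ran from -0.60 (1457635_s_at) to 0.61 (1453860_s_at). With GC-RMA, 1453860_s_at lay at 2.10 to 2.32, below the array medians. Probe sets above those medians also ran both ways in the wild-type pair. In GC-RMA values 1431378_at lay at 5.54 to 6.55, and its wild-type difference was 0.38 with RMA and 1.02 with GC-RMA. The probe set 1457635_s_at lay at 10.33 to 11.43, and its GC-RMA difference was -0.39.

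Pdk4 encodes a mitochondrial kinase that blocks pyruvate dehydrogenase during fasting, and Plin4 encodes a protein that coats lipid droplets. Pdk4 measured 8.24 against 8.14 in the Mt-KO pair, 8.21 against 8.13 in the heterozygous pair and 8.07 against 8.53 in the wild-type pair, lead against saline. The wild-type saline pool stood above the other 5, yet with GC-RMA the wild-type pair measured 7.22 in lead against 7.08 in saline. Relative to the median gene the Pdk4 differences were 0.01, -0.07 and -0.27 in Mt-KO, heterozygous and wild-type pairs. After quantile normalization they were 0.13, 0.06 and -0.48. Plin4 measured 7.92 against 8.15 in the Mt-KO pair, 8.14 against 8.03 in the heterozygous pair and 8.12 against 7.99 in the wild-type pair, lead against saline. In the same order its differences were -0.33, -0.05 and 0.31 relative to the median gene, and -0.20, 0.08 and 0.10 after quantile normalization. Its GC-RMA values of 1.86 to 2.03 were below the median of every array, so a Plin4 level above that of an unexpressed probe set was not shown. In a fit without the brightness filter the lead coefficients were -0.09 (SE 0.11) for Pdk4 and 0.00 (SE 0.10) for Plin4, with limma adjusted p = 1 for both. Genes of fat and skeletal muscle, which make much Plin4 and Pdk4, were dim as well, with only Acta1 of 6 measured markers bright enough to be tested.

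**Figure D3:**
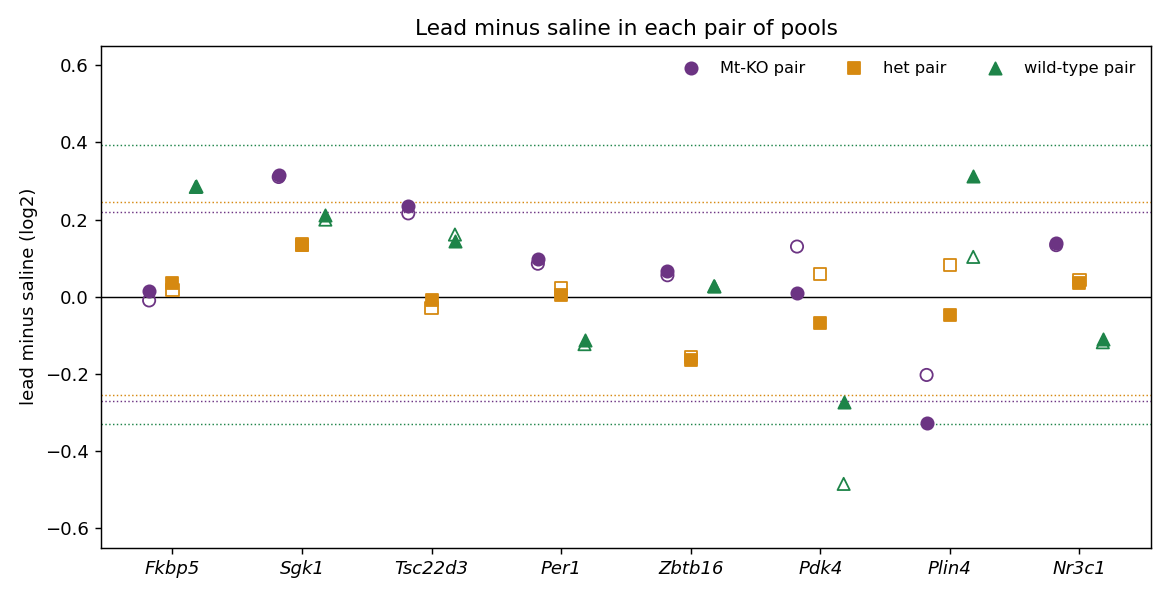
Lead minus saline difference (log2, y axis) of each member (x axis) in the Mt-KO, heterozygous and wild-type pair, with filled points for RMA relative to the median gene tested, open points for quantile-normalized values, and dotted lines at the 5th and 95th percentile of all genes tested. Sgk1 is above 0 in all 3 pairs on both scales (0.32, 0.13 and 0.21 relative to the median gene), and the filled and open points of the dim members Pdk4 and Plin4 lie apart.

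Over all members, lead against saline passed for 0 of 6 members tested with limma, against 0.119% of all genes tested (13 of 10916). At an unadjusted p under 0.05 it was also 0 of 6, against 1.53% of all genes. Relative to the median gene, the members' median difference was 0.12 in the Mt-KO pair with 6 of 6 above it, 0.02 in the heterozygous pair with 4 of 6 above it, and 0.09 in the wild-type pair with 4 of 6 above it. The 95% intervals of the 6 lead coefficients reached at most 0.52 upward and -0.29 downward.

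The wild-type pair decided how many members passed. Without it, and equally without either of its arrays, lead passed for 3 of 6 members, with 24.1% of all genes tested passing too, nearly all of them higher (22.5%). These were Sgk1 (0.35, limma adjusted p = 0.00237), Tsc22d3 (0.23, adjusted p = 0.0206) and Nr3c1 (0.21, adjusted p = 0.0254). When each array was also centred on its median gene, only Sgk1 passed (0.23, adjusted p = 0.00467), with 11.5% of all genes passing (4.93% of all genes higher and 6.61% lower). These 4 arrays leave 1 residual degree of freedom per gene.

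**Figure D4:**
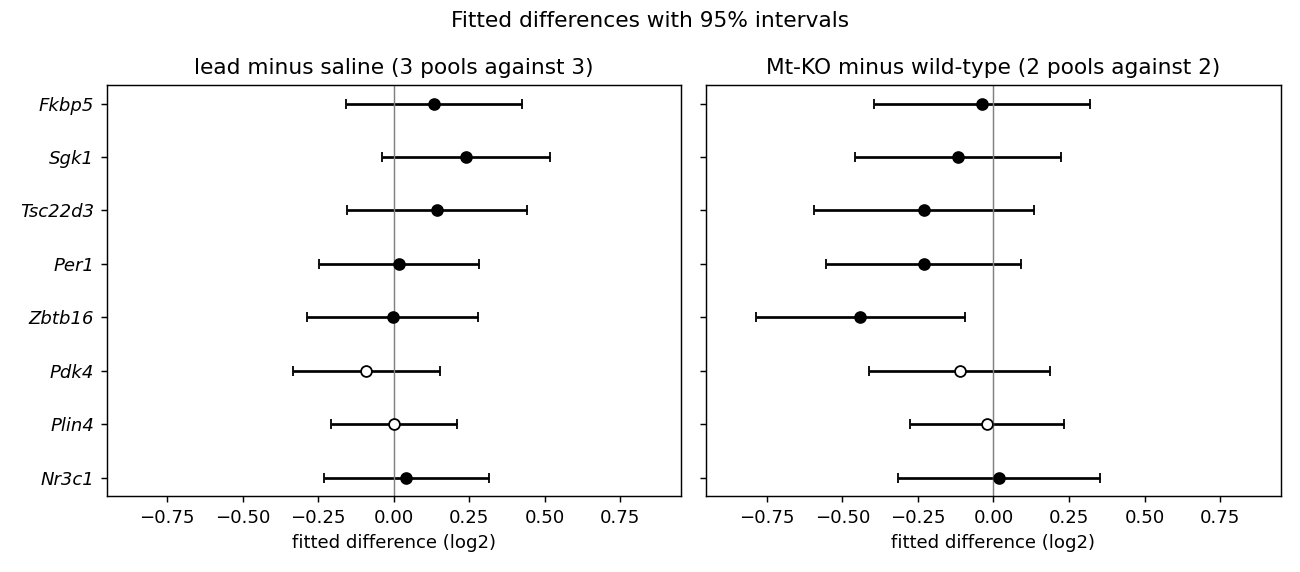
Fitted coefficients (log2, x axis) of lead minus saline and of Mt-KO minus wild-type for each member, with bars for 95% intervals and open points for Pdk4 and Plin4 from the fit without a brightness filter. The lead intervals all include 0, and of the Mt-KO intervals only that of Zbtb16 (-0.79 to -0.09) does not.

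Genotype was the larger difference for Zbtb16, which encodes the zinc finger repressor PLZF, a strongly glucocorticoid-induced gene that also marks some neural progenitors. Its brightest probe set measured 11.30 and 11.14 in Mt-KO pools, 11.46 and 11.48 in heterozygous pools and 11.58 and 11.74 in wild-type pools, lead and then saline. The 3 genotypes did not overlap, in an order that 1.07% of genes tested showed as deposited and 3.98% relative to the median gene. GC-RMA gave the same order, with 9.79 and 9.52 in Mt-KO, 9.93 and 10.48 in heterozygous and 10.53 and 10.52 in wild-type pools. PLIER did as well, with 2081.4 and 1708.4 in Mt-KO, 2305.6 and 2369.7 in heterozygous and 2443.5 and 2774.4 in wild-type pools. Mt-KO minus wild-type was -0.44 (SE 0.18, 95% interval -0.79 to -0.09), a level 0.736 times that of wild-type. It was below an unadjusted p of 0.05 (0.0125) but did not pass across all genes (limma adjusted p = 0.72). These 3 summaries are of the same probe set, and the order was not seen in the other Zbtb16 probe sets. The probe set 1419874_x_at had a smaller coefficient (-0.16), with 10.48 in wild-type lead against 10.50 in Mt-KO lead. The dim 1427638_at had a coefficient of almost 0 (-0.01). The lead coefficient of Zbtb16 was -0.00 (SE 0.14), and lead and saline pools averaged 11.45 ± 0.14 and 11.45 ± 0.30 (SD, n = 3 each).

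Mt-KO against wild-type passed for 0 of 6 members tested, against 0.431% of all genes tested (47 of 10916), and 1 of 6 (Zbtb16) had an unadjusted p under 0.05, against 3.5% of all genes. Tsc22d3 and Zbtb16 had both Mt-KO pools below the other 4 pools relative to the median gene, as did 14.7% of genes tested. For Tsc22d3 the Mt-KO coefficient was -0.23 (SE 0.19) and for Per1 -0.23 (SE 0.17), both with limma adjusted p = 1. The other Tsc22d3 probe sets had Mt-KO coefficients of 0.13 (1425281_a_at), -0.22 (1425557_x_at) and -0.12 (1444365_at). Sgk1, Fkbp5 and Nr3c1 had coefficients of -0.12, -0.04 and 0.02. Relative to the median gene, the members' median Mt-KO minus wild-type difference was -0.11 after lead and -0.21 after saline, with 1 of 6 above the median gene in each. These Mt-KO and heterozygous comparisons share the wild-type pools.

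Which members passed in the genotype comparison turned on the wild-type arrays. Without the wild-type lead array, 5 of 6 members passed as lower in Mt-KO, all but Fkbp5, but so did 36.3% of all genes tested, and 40.1% passed in either direction. Without the wild-type saline array, Zbtb16 was lower (-0.33, limma adjusted p = 0.0119) and Nr3c1 higher (0.27, limma adjusted p = 0.0262), with 22.3% of all genes passing. Without both, the coefficient is Mt-KO minus heterozygous brain, which is another comparison and gives no difference from wild-type. In it Zbtb16 alone passed (-0.25, limma adjusted p = 0.0477), with 2.39% of all genes. Zbtb16 was below 0 in each of these fits.

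Heterozygous against wild-type passed for 0 of 6 members, against 0.119% of all genes tested (13 of 10916), and 0 of 6 had an unadjusted p under 0.05, against 1.2% of all genes. Without the wild-type lead array Per1 (-0.46, limma adjusted p = 0.002) and Zbtb16 (-0.30, limma adjusted p = 0.0216) passed, and without the wild-type saline array Nr3c1 did (0.37, limma adjusted p = 0.00458), with 22.2% and 24.1% of all genes passing. Whether the lead difference changed with the number of intact alleles was tested in a second fit, which called 0 of 6 members, against 3.77% of all genes tested (412 of 10916). The limma adjusted p ran from 0.197 (Nr3c1) to 0.991 (Fkbp5). Nr3c1 (-0.26) and Per1 (-0.24) had an unadjusted p under 0.05, as did 20.1% of all genes, and the median coefficient of all genes was -0.15 per allele.

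The members did not move as 1 block across the 6 pools. Relative to the median gene, Sgk1 and Tsc22d3 had a Pearson correlation of 0.854, Tsc22d3 and Zbtb16 one of 0.808, and Per1 and Pdk4 one of 0.773, whereas Fkbp5 and Per1 had one of -0.035. Others were clearly negative, with -0.668 for Plin4 and Nr3c1, -0.642 for Fkbp5 and Pdk4 and -0.419 for Fkbp5 and Nr3c1. These are descriptions over 6 pools that share arrays and scaling. Of the other genes, Src (0.996), Brsk2 (0.990) and St6galnac3 (0.989) had the pattern most like that of Zbtb16, and 178 of 10915 genes correlated above 0.9 with it. Mthfd2l (0.986), Sgcb (0.979) and Krit1 (0.977) were most like Sgk1, with 72 of 10915 genes above 0.9.

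Other targets of the glucocorticoid receptor were spread on both sides of the median gene with lead. Of 28 listed, 27 were measured and 18 tested, 0 passed with lead (0 at an unadjusted p under 0.05), and 10 lay above the median gene with a median of 0.02. The 3 with the largest lead statistic were Sesn1, a stress-induced inhibitor of growth signalling (0.20, SE 0.15), Dusp1, a phosphatase that shuts off MAP kinases (0.15, SE 0.12), and Cables1 (0.14, SE 0.12), each with limma adjusted p = 1. Between Mt-KO and wild-type 0 of 18 passed and 4 lay above the median gene, with a median of -0.10. Glul, the glutamine synthetase of astrocytes, had the largest Mt-KO statistic in this list (-0.70, SE 0.30, limma adjusted p = 0.954), followed by Sesn1 (-0.38, SE 0.19, adjusted p = 1).

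In the hormonal axis and receptor machinery, 14 of 24 listed genes were tested, 0 passed with lead, and 10 lay above the median gene with a median of 0.08. Fkbp4, a co-chaperone that acts opposite to Fkbp5 on the receptor, had a lead coefficient of 0.15 (SE 0.15), and Hsd11b1, which regenerates active corticosterone inside cells, one of -0.11 (SE 0.13), both with limma adjusted p = 1. Avp, the vasopressin gene, was higher in Mt-KO brain than in its wild-type counterpart (0.57, SE 0.15, limma adjusted p = 0.0208), at 10.24 and 10.34 in Mt-KO, 9.97 and 10.01 in heterozygous and 9.85 and 9.59 in wild-type pools. That call was lost with GC-RMA (0.16, limma adjusted p = 0.975), PLIER (0.55, adjusted p = 0.888), quantile normalization (0.56, adjusted p = 0.344) and centred arrays (0.57, adjusted p = 0.297). Crh, which drives the axis from the hypothalamus, passed in the test of the lead difference against intact alleles (-0.39 per allele, SE 0.11, limma adjusted p = 0.0172), at 9.85 against 9.67 in the Mt-KO pair, 10.03 against 9.76 in the heterozygous pair and 9.64 against 10.23 in the wild-type pair. The lead difference was no lower in the heterozygous than in the Mt-KO pair, so the slope rests on the wild-type pair. The call was lost with GC-RMA (-0.13, adjusted p = 0.794), PLIER (-0.39, adjusted p = 0.142), quantile normalization (-0.33, adjusted p = 0.248) and centred arrays (-0.25, adjusted p = 0.196).

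Pomc, the precursor of the pituitary hormone that stimulates the adrenal, was higher in heterozygous than in wild-type brain (0.87, SE 0.14, limma adjusted p = 2.4e-06), from 1 pool. It measured 10.96 in heterozygous lead and 9.36 to 9.73 in the other 5 pools. The call was lost with GC-RMA (1.82, adjusted p = 1), quantile normalization (0.85, adjusted p = 0.999) and centred arrays (0.85, adjusted p = 1), and was kept with PLIER (1.23, adjusted p = 3.2e-05). Gh, the growth hormone gene of the pituitary, stood at 11.48 in the same pool and at 9.29 to 9.83 in the others. It passed for lead (0.85, limma adjusted p = 6.6e-10) and for heterozygous against wild-type brain (0.82, limma adjusted p = 1.4e-05). Both Gh calls were lost with GC-RMA, quantile normalization and centred arrays. They were kept with PLIER (0.88, limma adjusted p = 2.6e-05 for lead, and 1.40, adjusted p = 3.9e-09 for heterozygous against wild-type). The summed linear signal of the 2 pituitary markers tested, Gh and Pomc themselves, was 4836 in heterozygous lead and 1297 to 1610 in the other pools. The part of pituitary tissue in the Pomc value was not tested. Sgk1, Fkbp5 and Tsc22d3 measured 11.54, 11.72 and 11.83 in that pool, against 11.46, 11.70 and 11.81 in the next highest lead pool. Tsc22d3 was higher still in wild-type saline (11.84). Relative to the median gene, each of these members was highest in wild-type lead and not in heterozygous lead. The values were 0.52, 0.83 and 0.94 in wild-type lead against 0.49, 0.68 and 0.79 in heterozygous lead.

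Of 18 clock genes beside Per1, 14 were tested, 0 passed with lead or between genotypes, and 7 lay above the median gene with lead (median 0.00). Rora (0.18), Rorb (0.14) and Bhlhe40 (0.10) had the largest lead statistics, and Dbp (-0.29) and Hlf (-0.22), both output genes of the clock, the largest Mt-KO statistics, all with limma adjusted p = 1. Of 16 immediate early genes, which neurons induce within minutes of activity, 12 were tested, 0 passed with lead, and 3 lay above the median gene (median -0.04). Egr4 (-0.18), Junb (-0.16) and Fos (0.15) led that list. Of 16 fasting and lipid genes 8 were tested and 0 passed, with 6 above the median gene in lead (median 0.03). Acot1 (0.10), Pnpla2 (0.10) and Pdk2 (0.06) led it.

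Among 12 relatives of the members, 11 were tested, and lead passed for 0 with 6 above the median gene (median 0.01). Zbtb20 (0.19), Fkbp4 (0.15) and Nr3c2, the mineralocorticoid receptor that binds corticosterone with higher affinity than Nr3c1 does (-0.09), had the largest lead statistics, all with limma adjusted p = 1. Tsc22d2 had a lead difference that fell with each intact allele (-0.35, SE 0.11, limma adjusted p = 0.0433), and this was lost with GC-RMA (-0.53, adjusted p = 0.43), PLIER (-0.38, adjusted p = 0.146), quantile normalization (-0.26, adjusted p = 0.266) and centred arrays (-0.21, adjusted p = 0.249).

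Markers of cell types in which the members are expressed differed between the pools as well. In whole brain, more cells of a type and more RNA per cell cannot be told apart. With lead, 5 of 5 oligodendrocyte markers tested (median 0.22), 6 of 6 astrocyte markers (0.22) and 5 of 5 microglia markers (0.30) lay above the median gene in the fitted coefficient. Of the neuron markers 4 of 6 did (0.03). By pair, the oligodendrocyte median was 0.25 in Mt-KO, -0.14 in heterozygous and 0.47 in wild-type. In the same order, the astrocyte medians were 0.13, 0.21 and 0.24, and the microglia medians 0.07, 0.34 and 0.30. None of these lists had a marker that passed, while 1 oligodendrocyte, 1 astrocyte and 3 microglia markers had an unadjusted p under 0.05, against 1.53% of all genes tested. Markers of endothelial cells (1 of 4 above the median gene, median -0.03) and of pericytes and smooth muscle (1 of 5, median -0.10) lay mostly below it. Summed linear signal was taken from values as deposited, so it carries the array shifts given above. It was 28203 to 43850 in lead pools against 22789 to 34158 in saline pools for oligodendrocytes. For astrocytes it was 40096 to 47083 against 33024 to 41652, and for microglia 11693 to 13732 against 10454 to 11098. In the wild-type pair the astrocyte sum was 41509 in lead against 41652 in saline. In Mt-KO against wild-type, 0 of 6 neuron markers (median -0.28), 1 of 5 oligodendrocyte markers and 2 of 6 astrocyte markers lay above the median gene, as did 3 of 5 microglia markers (median 0.00), 3 of 4 endothelial markers (0.13) and 0 of 5 pericyte and smooth muscle markers (-0.07). The part of these markers in the values of Sgk1, Fkbp5 and Zbtb16 was not tested.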

How the data were processed

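Each of 6 arrays carried RNA of 1 pool, and each was deposited 3 times, as RMA, GC-RMA and PLIER summaries, so the 18 columns are not 18 replicates. Partek, RMA, GCRMA and PLIER are named per the submitters' processing notes, without versions. The RMA and GC-RMA columns were deposited as log2 values. The PLIER columns were deposited as linear intensity and entered as log2(value + 16). RMA values were used unless another summary is named. Of 45101 probe sets, 34958 had 1 symbol, 932 several and 9211 none, and the gene IDs of 34754 probe sets with 1 symbol matched the GRCm38.p6 gene table. The upper 60% of genes by mean RMA value were tested with limma 3.58.1 (R 4.3.3, moderated by eBayes with a mean trend, both directions), and p-values were adjusted by Benjamini-Hochberg over all of them at a threshold of 0.05. Treatment was fitted with genotype as a block, and the interaction took intact alleles as linear, each with 2 residual degrees of freedom. The prior was infinite in these fits, so a gene's own spread between arrays carried no weight beside the trend. The same code was tested on simulated data. The number of arrays limits the precision. Members and gene lists were chosen with earlier results of these data known. All members were named, as was every gene of the 6 gene lists that passed a comparison, plus up to 3 genes by lead statistic and 2 by Mt-KO statistic per list. Start windows came from RefSeq. Alternatives were GC-RMA, PLIER, quantile normalization, centred arrays, other brightness filters, the mean over probe sets, no trend, no block, intact alleles as a linear term, a looser threshold of 0.10 and leaving out pairs or arrays. Leaving out wild-type arrays together with centring, and setting pair differences against probe sets of like brightness, were chosen after seeing the data.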

Additional observations from a re-analysis of the deposited data

How the results depend on the processing

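With all 6 arrays, each alternative of summary, scaling, filter, probe set, prior, block or threshold left 0 of 6 members passing in the 4 comparisons. Leaving out pairs or arrays gave 0 to 3 members passing for lead, 0 to 5 for Mt-KO and 0 to 2 for the heterozygote, with each count above 0 from a fit without a wild-type array. With arrays centred as well, 1 passed for lead, 1 to 3 in the Mt-KO comparison and 1 in the heterozygous one. The members' median lead coefficient above the median gene was 0.07, 0.12 with GC-RMA and 0.0063 to 0.098 when pairs or arrays were left out. The Mt-KO median of -0.14 became -0.23 to -0.0839 when they were left out. In fits without the wild-type pair the Mt-KO coefficient is Mt-KO minus heterozygous brain, and the -0.0839 is from that comparison. The fit with no replicate block (no genotype block) kept the lead median at 0.07 and called 0 of 6.

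Some coefficients changed sign. For lead these were Per1 with GC-RMA (-0.10), PLIER (-0.0531 with a pseudocount of 16 and -0.0535 with 1) and quantile normalization (-0.0051), Zbtb16 with PLIER (0.0204 and 0.0207), the mean of its probe sets (0.0063) and 1419874_x_at (0.0275), Fkbp5 with 1447736_at (-0.0937) and Nr3c1 with 1421867_at (-0.0406). For Mt-KO they were Nr3c1 with GC-RMA (-0.15), PLIER (-0.10 with either pseudocount), the mean of its probe sets (-0.0356), 1421867_at (-0.0236), 1457635_s_at (-0.30), 1431378_at (-0.12) and 1453860_s_at (-0.13), Fkbp5 with the mean of its probe sets (0.048), 1448231_at (0.12) and 1447736_at (0.0663), and Tsc22d3 with 1425281_a_at (0.13). Leaving out pairs or arrays moved the lead coefficient of Nr3c1 between -0.0537 and 0.21, of Per1 between -0.0709 and 0.17 and of Zbtb16 between -0.0848 and 0.0735. It moved the Mt-KO coefficient of Nr3c1 between -0.23 and 0.27, of Sgk1 between -0.28 and 0.0419 and of Per1 between -0.47 and 0.0028. That of Fkbp5 stayed at -0.0609 to -0.017 when pairs or arrays were left out, and lay between -0.17 and 0.081 when the arrays were also centred. The cause was not tested.

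Over all genes, the 13 lead calls became 0 with GC-RMA, quantile normalization, centred arrays, no filter, no trend, no block, a linear allele term or the mean of probe sets, 4 in the upper 40% of genes, 13 with PLIER, and 1 to 2632 when pairs or arrays were left out. The 47 Mt-KO calls became 0 with GC-RMA, 1 after quantile normalization, 7 on centred arrays or with a linear allele term, 6 with no filter, 4 with no trend, 10 with the mean of probe sets, 20 in the upper 40% and 68 with PLIER, and 8 to 4380 when pairs or arrays were left out. The 13 heterozygote calls became 0 with GC-RMA, quantile normalization, centred arrays, no filter, no trend or the mean of probe sets, 6 in the upper 40% of genes and 3 to 2627 when pairs or arrays were left out. The 412 interaction calls became 0 with GC-RMA, 1 after quantile normalization, 20 on centred arrays, 142 with PLIER, 92 with no filter, 79 with no trend, 99 in the upper 40%, 737 at a threshold of 0.10 and 15 to 1029 when arrays were left out.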
